A study of Mus with 6 samples.

Results

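The genes described here are 10 members of the insulin-like growth factor (IGF) axis and the insulin receptor pathway, measured in livers of mice with alcoholic steatohepatitis (fatty liver with inflammation). They are the IGF-binding protein genes Igfbp1, Igfbp2, Igfbp3 and Igfbp4, the ligand gene Igf1, the acid-labile subunit gene Igfals, the growth hormone receptor gene Ghr, the insulin receptor gene Insr and the receptor substrate genes Irs1 and Irs2. All 10 were found by symbol among 48882 genes in the table, and each is annotated as protein coding. They were picked by name with the knockout and wild type levels of these same libraries already known, so their differences between the groups are given as descriptions and carry no test. RNA came from flash-frozen whole liver of FABP4 knockout (KO) mice and their wild type (WT) littermates, with 3 libraries in each group. Every mouse of both groups had received the Lieber-DeCarli ethanol liquid diet for 8 weeks and 1 ethanol binge, so no liver without ethanol was analysed here. The labels give neither age nor sex. The knockout is not described as limited to a cell type, and the labels do not state whether each replicate number is a separate mouse, so any p-value measures the spread between these libraries only.

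Liver is the main source of circulating IGF-1, which hepatocytes make when growth hormone acts through its receptor, the kinase JAK2 and the transcription factor STAT5. Most circulating IGF-1 is held in complexes of a binding protein and the acid-labile subunit, while IGFBP-1 is a short-lived binding protein whose gene insulin shuts off in hepatocytes through AKT and the FOXO factors. Irs2, which encodes an adaptor that links the insulin receptor to phosphoinositide 3-kinase, is repressed by insulin through the same FOXO route and is switched on in fasting.

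Levels are in TPM, by definition a share of all transcripts corrected for transcript length, so that levels of different genes can be compared. The deposited values look quantile normalized and sum to between 983800 and 1018118 TPM per library, so they are not exact shares. Fabp4 had no value in any of the 3 KO libraries and was at 8.15 to 19.96 TPM in the WT libraries. TPM holds no read counts, and the sequencing depth is therefore unknown. On the first principal component WT replicate 2 stood alone at 38.1, with the remaining libraries between -22.3 and 2.50. On the second KO replicate 1 stood alone at 30.8, with the remaining libraries between -21.8 and 5.92. Hepatocyte markers were present in every library, and their summed level was 137925 to 138988 TPM in KO and 131763 to 144043 TPM in WT libraries. Xist was at 60.4 to 85.0 TPM in all 6 libraries, and 4 Y-linked genes summed to at most 0.0704 TPM.

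The 10 genes spanned more than 2 orders of magnitude in level, and the order was similar in every library apart from Igfbp1. Igfbp4 ranked first and Igfbp2 second in each of the 6 libraries, with mean levels of 1379 and 888 TPM over all libraries. Igfbp1 was in place 3 in each WT library, and in places 4, 5 and 7 in KO replicates 1, 2 and 3. Igfbp1, Ghr and Igf1 had overlapping ranges over the 6 libraries, with Igfbp1 above Ghr in 3 of 6 libraries and Ghr above Igf1 in 5 of 6. Igf1 was above Igfals in all 6 libraries with no overlap of their ranges. Igfals and Insr overlapped, and Insr lay wholly above Igfbp3. Igfbp3, Irs2 and Irs1, at means of 10.1, 9.77 and 8.04 TPM, could not be ordered beyond their spread.

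**Figure D1:**
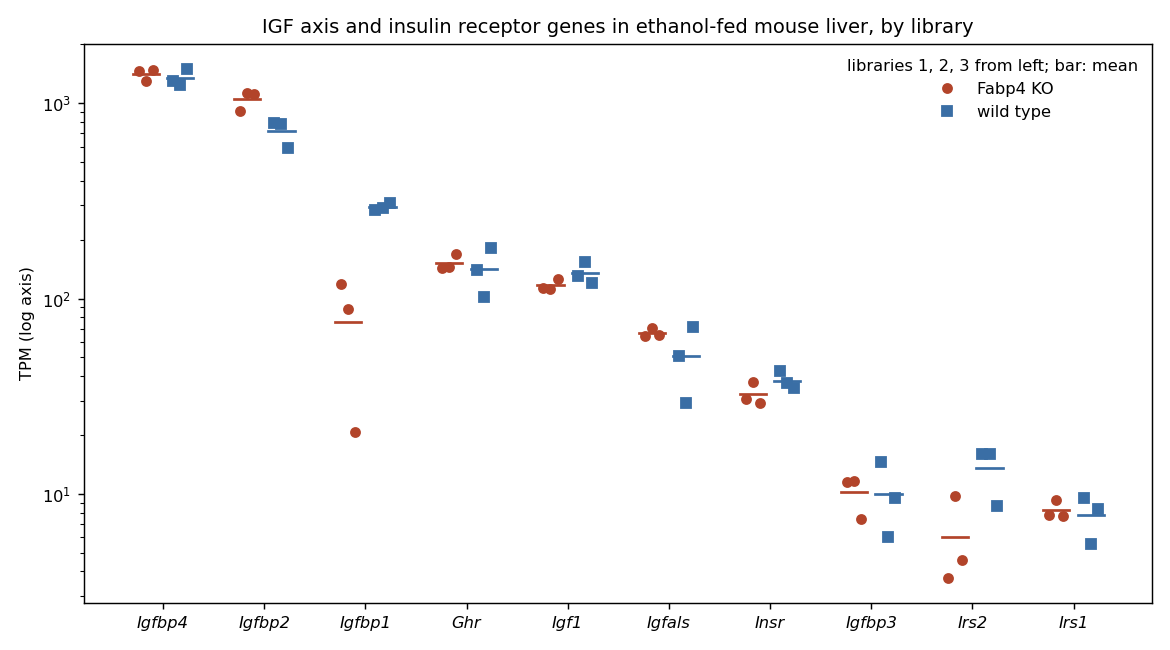
TPM of the 10 genes on a log axis, with circles for the 3 KO libraries and squares for the 3 WT libraries (replicates 1, 2 and 3 from left) and a bar at each group's mean. Igfbp1 lies between 20.7 and 118 TPM in KO and between 285 and 308 TPM in WT libraries, and Igfbp2 lies higher in every KO library, while the other 8 genes overlap between the groups.

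Among the binding proteins, Igfbp1 was lower and Igfbp2 higher in every KO library, and Igfbp4 and Igfbp3 overlapped between the groups. Igfbp1 (mm10 chromosome 11, 7197787 to 7202546, plus strand) was at 118, 88.9 and 20.7 TPM in KO replicates 1, 2 and 3, against 285, 289 and 308 TPM in WT replicates 1, 2 and 3. All KO values lay under all WT values, and the KO libraries were spread far more widely than the WT libraries. The means were 76.0 ± 50.1 TPM in KO and 294 ± 12.0 TPM in WT (SD, n = 3 each), a level 3.87-fold lower in KO. On the log2(TPM + 1) scale the KO minus WT difference was -2.26 (SE 0.56), in place 10 by absolute size among 14155 genes tested. Igfbp1 was picked with these levels known, so that place is a description only. KO replicate 3 had the lowest level, and without it the KO mean was 104 TPM, 2.84-fold lower than WT (log2 -1.51). Without KO replicate 1 and WT replicate 2 together, the libraries that stood apart, the log2 difference was -2.75. In whole liver, fewer cells of a type and less RNA per cell cannot be told apart, and this holds for each level given here.

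Igfbp2, whose product is another IGF-binding protein made in quantity by hepatocytes, stood opposite to Igfbp1. Igfbp2 (mm10 chromosome 1, 72824480 to 72852474, plus strand) was at 914, 1131 and 1117 TPM in the KO libraries, against 792, 784 and 592 TPM in the WT libraries. The lowest KO library lay above the highest WT library, and WT replicate 3 stood under the other WT libraries. The means were 1054 ± 121 TPM in KO and 722 ± 113 TPM in WT (SD, n = 3 each), 1.46-fold higher in KO, with a log2 difference of 0.55 (SE 0.16) that was 0.71 without the 2 libraries that stood apart. The ratio of Igfbp2 to Igfbp1 was 7.72, 12.7 and 54.0 in KO replicates 1, 2 and 3, against 2.78, 2.71 and 1.92 in WT replicates 1, 2 and 3.

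Igfbp4, the most abundant of the 10 and an inhibitor of IGF action in the tissue, was at 1457, 1304 and 1475 TPM in KO against 1307, 1240.4 and 1490.5 TPM in WT. The groups overlapped, with a log2 difference of 0.07 (SE 0.13). Igfbp3 (mm10 chromosome 11, 7206086 to 7214081, minus strand) encodes the main carrier of IGF-1 in blood and is known in rodent liver mainly from non-parenchymal cells. It starts 3539 bases beyond the end of Igfbp1 in the table's coordinates, on the other strand. Its levels were 11.5, 11.6 and 7.46 TPM in KO, against 14.6, 5.97 and 9.48 TPM in WT, and the difference was 0.07 (SE 0.30) on the log2 scale. Its neighbour's difference was thus not shared by Igfbp3, for which the groups overlapped throughout. Markers of liver endothelial cells, one of the non-parenchymal types, summed to 303 to 362 TPM in KO and 213 to 270.3 TPM in WT libraries, and 12 of 12 had a positive difference. Kupffer cell and macrophage markers had a positive difference for 10 of 10 (median log2 0.80), with sums of 373, 471 and 843 TPM in KO replicates 1, 2 and 3, against 551, 198 and 235 TPM in WT replicates 1, 2 and 3. Neutrophil markers had a negative difference for 3 of 3 tested (median log2 -1.003), and all 6 summed to 14.3 to 19.86 TPM in KO and 19.9 to 48.9 TPM in WT libraries. Over all genes tested, 42.6% had a negative difference. The part of these cell types in the levels of the binding proteins was not tested.

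The summed level of the 4 binding protein genes was 2501, 2535 and 2620.1 TPM in KO replicates 1, 2 and 3, against 2398, 2319 and 2399 TPM in WT replicates 1, 2 and 3. Igfbp1 made up 4.73, 3.51 and 0.789% of that sum in the KO libraries, against 11.9, 12.5 and 12.8% in the WT libraries. The share from Igfbp1 was thus lower in every KO library, while every KO sum lay above every WT sum. Igfbp2 supplied 36.6 to 44.6% of it in KO and 24.7 to 33.8% in WT, and Igfbp4 supplied the rest but for a small share from Igfbp3.

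**Figure D2:**
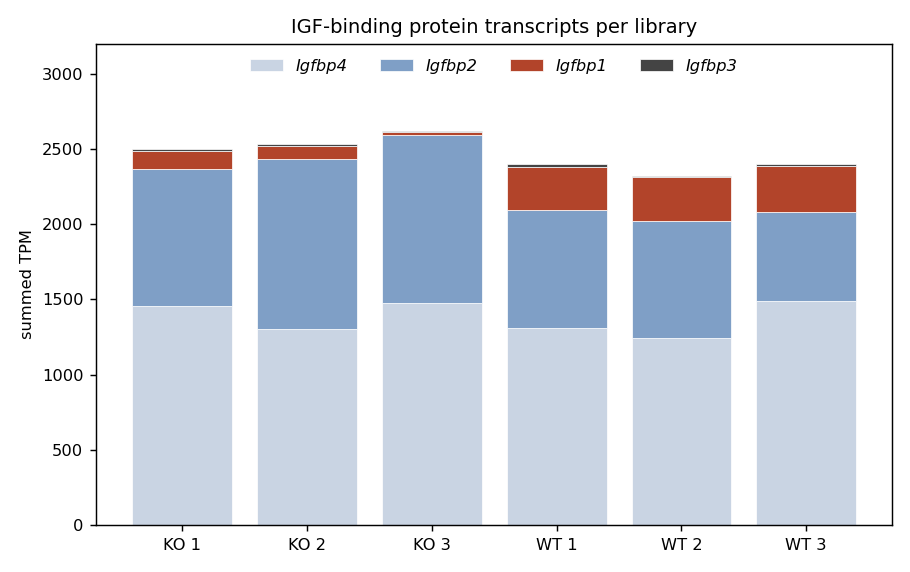
Stacked TPM of Igfbp4, Igfbp2, Igfbp1 and Igfbp3 in each library, KO left of WT. The Igfbp1 segment is 0.789 to 4.73% of the stack in KO and 11.9 to 12.8% in WT libraries, and the stacks total 2501 to 2620.1 TPM in KO and 2319 to 2399 TPM in WT.

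The ligand and growth hormone receptor genes showed no separation of the groups. Igf1 (mm10 chromosome 10, 87858265 to 87937047, plus strand) was at 113, 112 and 125 TPM in KO replicates 1, 2 and 3, against 130.4, 153 and 120.5 TPM in WT replicates 1, 2 and 3. KO replicate 3 lay above WT replicate 3, so the groups overlapped. The means were 117 ± 7.44 and 135 ± 16.7 TPM in KO and WT (SD, n = 3 each), with a log2 difference of -0.20 (SE 0.13), which was -0.10 without WT replicate 2, the highest library.

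Igfals, whose product stabilises the circulating IGF complex and which growth hormone induces through STAT5, was close to constant in KO and varied in WT. Igfals (mm10 chromosome 17, 24877652 to 24882011, plus strand) was at 64.1, 70.6 and 64.7 TPM in KO, against 50.9, 29.3 and 71.3 TPM in WT. WT replicate 3 exceeded every KO library, so the groups overlapped. The log2 difference was 0.48 (SE 0.29), and 0.14 without WT replicate 2, the lowest library. The ratio of Igfals to Igf1 was 0.517 to 0.632 in KO and 0.192 to 0.591 in WT libraries.

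Ghr (mm10 chromosome 15, 3317755 to 3583352, minus strand) was at 143, 145 and 169 TPM in KO, against 140.1, 102 and 181 TPM in WT. The WT range enclosed the KO range, with a log2 difference of 0.15 (SE 0.21) that was -0.06 without WT replicate 2. WT replicate 2 thus had the lowest Ghr and Igfals and the highest Igf1 of the 6 libraries.

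Of the insulin receptor and its substrates, Irs2 had the largest difference between group means and Irs1 and Insr small ones. Irs2 (mm10 chromosome 8, 10986961 to 11008430, minus strand) was at 3.73, 9.74 and 4.60 TPM in KO replicates 1, 2 and 3, against 15.9, 15.9 and 8.69 TPM in WT replicates 1, 2 and 3. KO replicate 2 lay above WT replicate 3, so the groups overlapped. The means were 6.02 ± 3.25 TPM in KO and 13.5 ± 4.18 TPM in WT (SD, n = 3 each), 2.24-fold lower in KO, with a log2 difference of -1.10 (SE 0.34). Leaving out 1 library moved that difference between -0.86 without KO replicate 1 and -1.45 without KO replicate 2, and it was -0.72 without KO replicate 1 and WT replicate 2 together.

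Irs1 (mm10 chromosome 1, 82233105 to 82291439, minus strand), the other main substrate of the receptor in liver, was at 7.81, 9.33 and 7.72 TPM in KO, against 9.48, 5.56 and 8.32 TPM in WT. The log2 difference was 0.10 (SE 0.19), and -0.09 without WT replicate 2. The ratio of Irs2 to Irs1 was 0.477, 1.04 and 0.597 in KO replicates 1, 2 and 3, against 1.68, 2.87 and 1.04 in WT replicates 1, 2 and 3. Insr (mm10 chromosome 8, 3150922 to 3279649, minus strand) was at 30.5, 37.5 and 29.1 TPM in KO, against 42.6, 36.7 and 34.6 TPM in WT. The groups overlapped through KO replicate 2, with a log2 difference of -0.23 (SE 0.15).

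**Figure D3:**
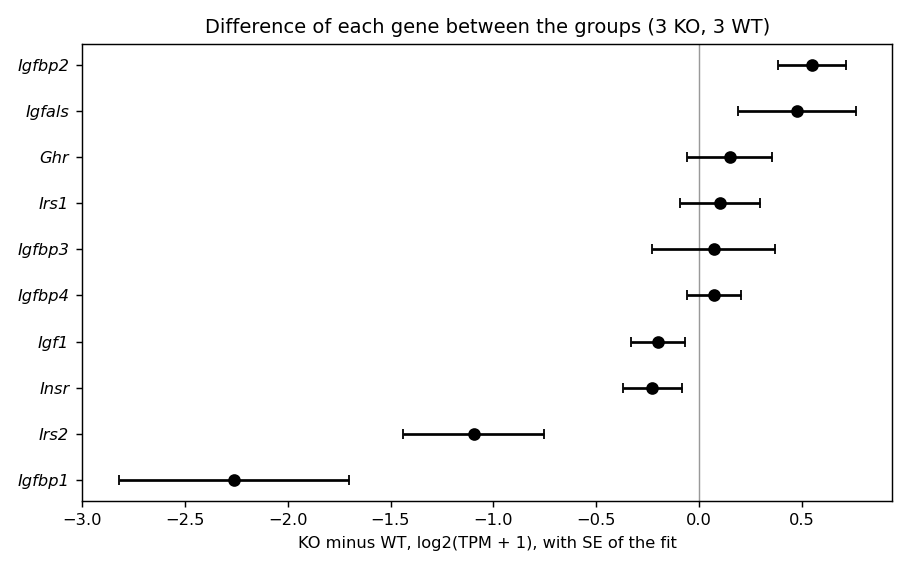
KO minus WT difference of each gene on the log2(TPM + 1) scale, with the SE of the fit as the bar. Igfbp1 (-2.26) and Irs2 (-1.10) lie lowest and Igfbp2 (0.55) and Igfals (0.48) highest.

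The insulin-repressed pair, Igfbp1 and Irs2, was set against the growth hormone-driven pair, Igf1 and Igfals. The mean log2(TPM + 1) of Igfbp1 and Irs2 was 4.57, 4.96 and 3.46 in KO replicates 1, 2 and 3, against 6.12, 6.13 and 5.77 in WT replicates 1, 2 and 3. The same mean of Igf1 and Igfals was 6.43, 6.49 and 6.51 in KO, against 6.37, 6.09 and 6.55 in WT. The first pair was thus lower in each KO library, while the second overlapped between the groups. The first pair minus the second averaged -2.15 ± 0.80 in KO and -0.33 ± 0.41 in WT (SD, n = 3 each), a KO minus WT difference of -1.82 on the log2 scale. That difference lay between -2.12 and -1.37 when 1 library was left out. Within the first pair the libraries were not ordered alike. Igfbp1 was lowest in KO replicate 3 and within 285 to 308 TPM in the WT libraries. Irs2 was lowest in KO replicate 1, and WT replicate 3 had the lowest Irs2 of the WT libraries.

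Of the 10 genes, all with a value in every library, 2 had groups that did not overlap, Igfbp1 and Igfbp2, against 13.3% of all 14155 genes tested. Since these genes were chosen on this contrast, nothing is read from that count. Over all genes Fabp4 alone was past an adjusted p of 0.05 in limma (Benjamini-Hochberg), 0.00706% of those tested, and 8.03% had an unadjusted p under 0.05. The median log2 difference was 0.07 for the 10 genes and 0.04 for all genes tested.

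The rest of the IGF system was mostly too low to test, and what could be tested were mostly genes known from cells other than hepatocytes. Of 12 further genes, 5 passed the filter of a mean of 0.5 TPM, 4 with a positive and 1 with a negative difference, and none passed the test (smallest limma adjusted p 0.580; 1 with an unadjusted p under 0.05). The median log2 difference was 0.46, against 0.04 for all genes. Of the 5, 2 had groups that did not overlap, Igfbp7 and, by a very narrow margin, Htra1, against 13.3% of all genes. Igfbp7, an IGF-binding protein-related gene of endothelium, was at 150.1, 111 and 109 TPM in KO, against 95.0, 64.2 and 97.0 TPM in WT. Every KO library lay above every WT library, with a log2 difference of 0.53 (SE 0.20) that was 0.19 without KO replicate 1 and WT replicate 2 together. The endothelial marker sum was also higher in every KO library (303 to 362 TPM in KO and 213 to 270.3 TPM in WT). It was highest in KO replicate 3, however, and Igfbp7 in KO replicate 1. Stellate cell and fibroblast marker sums were higher in KO too (422.9 to 528 TPM in KO and 362 to 421.5 TPM in WT). Their sum, like Igfbp7, was highest in KO replicate 1. The part of these cell types in Igfbp7 was not tested.

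Igfbp5 and Igfbp6, binding protein genes expressed in mesenchymal cells, were highest in KO replicate 1, at 8.44 and 5.34 TPM. Their log2 differences were 0.46 (SE 0.52) and 0.82 (SE 0.47), and that of Igfbp5 was -0.05 without that library. Stellate cell and fibroblast markers were also highest in KO replicate 1, with sums of 528, 422.9 and 426.5 TPM in KO replicates 1, 2 and 3. In WT replicates 1, 2 and 3 their sums were 421.5, 364 and 362 TPM. Every KO sum thus lay above every WT sum, with KO replicate 2 close to WT replicate 1. The part of these cells was not tested. Htra1, a secreted protease gene, was at 2.60, 1.328 and 1.37 TPM in KO, against 0.812, 1.28 and 1.325 TPM in WT (log2 0.35, SE 0.22). KO replicate 2 and WT replicate 3 were thus almost equal, and the groups were barely apart. The IGF-1 receptor gene Igf1r (0.421 to 0.680 TPM in KO and 0.263 to 0.507 TPM in WT) and Igf2 (at most 0.302 TPM in any library) fell under the filter. So did the genes of the protease Pappa, which cleaves IGFBP-4, and of its inhibitors Stc1 and Stc2.

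Genes of the growth hormone pathway were split, 5 with a positive and 6 with a negative difference among 11 tested, and none passed the test (smallest limma adjusted p 0.499; 2 with an unadjusted p under 0.05). The median log2 difference was -0.03, and 1 of 11 had groups that did not overlap, against 13.3% of all genes. That gene was Onecut1, a hepatocyte transcription factor gene that growth hormone induces, at 7.27, 5.92 and 6.89 TPM in KO, against 12.9, 22.6 and 14.3 TPM in WT. Its log2 difference was -1.16 (SE 0.21), and it was highest in WT replicate 2. Cux2, a repressor that the female pattern of growth hormone induces in mouse liver, was at 5.21, 7.01 and 4.57 TPM in KO, against 4.60, 1.68 and 2.43 TPM in WT (log2 0.81, SE 0.28).

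Egfr, the epidermal growth factor receptor gene, was at 13.3, 14.6 and 16.9 TPM in KO, against 21.3, 42.4 and 16.8 TPM in WT. Its log2 difference was -0.70 (SE 0.31), and -0.33 without WT replicate 2. The kinase gene Jak2 differed by 0.23 (SE 0.15). The direct STAT5 targets Socs2 and Cish, feedback inhibitors of the receptor, were at 1.64 to 3.98 and 2.59 to 5.14 TPM in KO and at 3.09 to 3.76 and 2.02 to 5.63 TPM in WT. Both overlapped between the groups, as did the STAT5 targets Igf1 and Igfals described above. Of the growth hormone-induced genes Onecut1 and Cux2, the groups did not overlap for Onecut1 (log2 -1.16) and overlapped for Cux2 (log2 0.81).

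Genes of the insulin signal below the receptor were close to equal in both groups. Of 21 kinases, adaptors and FOXO factors, 9 had a positive and 12 a negative difference, the median was -0.0049 and none passed the test (smallest limma adjusted p 0.651; 0 with an unadjusted p under 0.05). Foxo1, the factor through which insulin represses Igfbp1, was at 16.1, 16.3 and 16.7 TPM in KO, against 21.5, 15.5 and 15.7 TPM in WT. Pik3r2, a regulatory subunit of phosphoinositide 3-kinase, was at 10.2 to 12.4 TPM in KO and 8.26 to 9.73 TPM in WT (log2 0.29, SE 0.13). It was the 1 gene of the 21 whose groups did not overlap, against 13.3% of all genes. The differences of the TORC2 subunit gene Rictor, of Mtor and of the AKT-activating kinase gene Pdpk1 were -0.29 (SE 0.17), -0.25 (SE 0.18) and -0.20 (SE 0.17).

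Among 12 genes that restrain the insulin signal, 5 had a positive and 7 a negative difference, the median was -0.01 and none passed the test (smallest limma adjusted p 0.673; 0 with an unadjusted p under 0.05). Socs3, a cytokine-induced inhibitor of receptor signalling, was at 4.78, 2.82 and 3.26 TPM in KO, against 6.88, 22.8 and 2.54 TPM in WT. Its log2 difference of -0.94 (SE 0.60) was -0.22 without WT replicate 2. The lipid phosphatase gene Inppl1 differed by 0.34 (SE 0.16), the receptor inhibitor gene Grb14 by 0.15 (SE 0.11) and Ceacam1, which promotes insulin clearance, by -0.21 (SE 0.14). Grb14 was the 1 gene of the 12 whose groups did not overlap, against 13.3% of all genes. They were barely apart, with a lowest KO value of 29.96 TPM and a highest WT value of 29.68 TPM.

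Of the other insulin-repressed genes, Pdk4 had a lower mean in KO, and most had small differences. Of 9 tested, 7 had a positive and 2 a negative difference, with a median of 0.09. No gene had groups that were apart, against 13.3% of all genes, and none was past the test (smallest limma adjusted p 0.683; 0 with an unadjusted p under 0.05). Pdk4, which restrains glucose oxidation and is high in fasting, was at 20.0, 8.98 and 7.94 TPM in KO, against 89.7, 55.2 and 8.79 TPM in WT. WT replicate 3 lay among the KO libraries, and the log2 difference was -1.58 (SE 0.77). The gluconeogenic genes G6pc and Pck1 were at 222 to 343 and 896 to 2037 TPM in KO and at 132 to 462 and 889 to 1899.5 TPM in WT, so that both overlapped widely. Klf15, Tat and Mttp differed by 0.18 (SE 0.21), 0.15 (SE 0.28) and 0.09 (SE 0.14), and the sign of the last 2 turned when 1 library was left out.

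Insulin-induced genes had a positive difference for 11 of 12 tested, with a median log2 difference of 0.68 against 0.04 for all genes. Of all genes tested, 42.6% had a negative difference. None passed the test (smallest limma adjusted p 0.516; 2 with an unadjusted p under 0.05), and the groups were apart for 1 of 12, against 13.3% of all genes. That gene was Angptl8, a feeding-induced regulator of lipoprotein lipase, at 261, 120.2 and 271 TPM in KO, against 37.0, 19.7 and 64.3 TPM in WT (log2 2.46, SE 0.45). Its lowest KO library, replicate 2, was not the KO library with the highest Igfbp1.

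Most others of this list had WT replicate 3 with or above the KO libraries. Mid1ip1, an activator of acetyl-CoA carboxylase, was at 41.4, 64.1 and 55.9 TPM in KO, against 10.1, 11.5 and 75.8 TPM in WT (log2 1.29, SE 0.67). Without WT replicate 3 its difference was 2.20, and it then passed the test (limma adjusted p 0.049). Ppp1r3b, a glycogen-targeting subunit of protein phosphatase 1, was at 170 to 188 TPM in KO and at 93.5, 71.4 and 181 TPM in WT (log2 0.72, SE 0.31). In WT replicate 3, then, Mid1ip1 was above every KO library and Pdk4 and Irs2 were within the KO ranges. Igfbp1 in that library was at 308 TPM, close to WT replicates 1 and 2 (285 and 289 TPM).

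**Figure D4:**
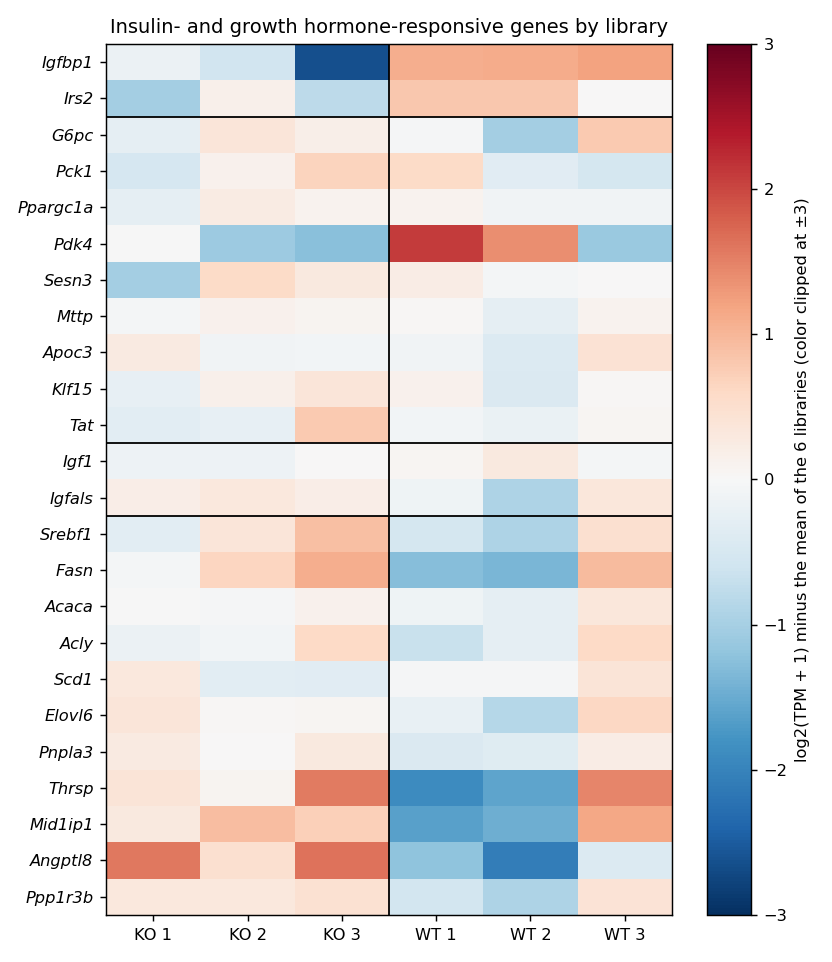
Each row is a gene and each column a library, with KO left of WT, and color gives log2(TPM + 1) centred on that gene's average, clipped at 3. From the top the blocks are Igfbp1 and Irs2, the other insulin-repressed genes, Igf1 and Igfals, and insulin-induced genes. Among the last, Mid1ip1 is as high in WT replicate 3 as in the KO columns, while Igfbp1 in WT replicate 3 is near the other WT columns.

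**Figure D5:**
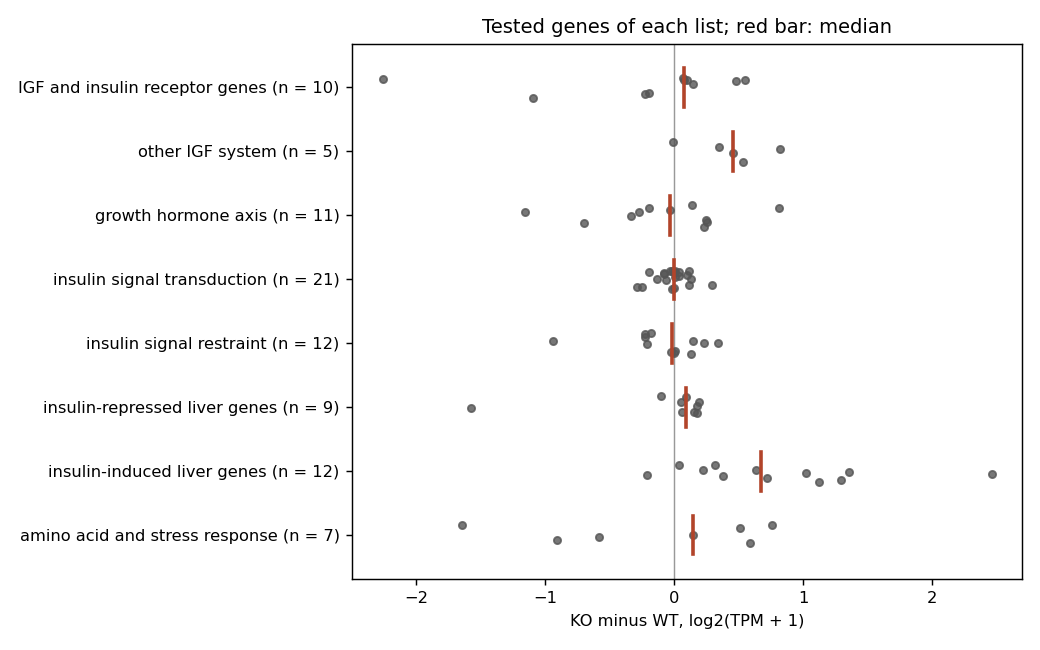
KO minus WT difference on the log2(TPM + 1) scale for each tested gene (points) of the 10 described genes and of the 7 lists, with the list median as a red bar. The medians run from -0.03 for the growth hormone axis to 0.68 for insulin-induced genes.

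The genes whose profile over the 6 libraries was nearest to that of Igfbp1 were sought among 7535 protein-coding genes with a mean of at least 5 TPM, by the root mean square difference of log2(TPM + 1) after each gene's mean was taken off. Nearest were Nlrp12, Hamp2, Pim1, Lrg1 and Cebpd, at distances of 0.785 to 0.930, against 1.36 for a flat profile. By this distance, which counts the size of the differences as well as their pattern, no gene lay close to Igfbp1. A gene with a like pattern but a smaller range also lies far from it. Lrg1, a glycoprotein gene of the acute-phase response, was at 375, 241 and 258 TPM in KO, against 802, 1097 and 463 TPM in WT. Without KO replicate 3, 0 of these 5 remained among the nearest. Around Igf1 the nearest 5, Tm9sf4, Gosr2, Seh1l, Rapgef1 and Thumpd1, lay at 0.0188 to 0.0482 against 0.151 for a flat profile, and the small range of Igf1 leaves many genes close to it.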

How the data were processed

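In all, 6 liver RNA samples were sequenced on an Illumina HiSeq system, per the labels' protocols. Reads were handled with FastQC and Trimmomatic and build mm10, per the submitters' processing notes; aligner, quantification tool and strandedness: not given in the sources used here. The deposited values are log2 TPM, although the file headers say TPM. They share 1 maximum (16.59) and nearly the same median (1.07) in every library, as quantile normalization leaves them, so a shift of all genes cannot be seen. Values were back-transformed, and blanks were taken as 0.

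KO and WT were fitted with limma 3.58.1 under R 4.3.3 (two-sided, eBayes trend, no covariate) on log2(TPM + 1) for 14155 genes with a mean of at least 0.5 TPM, with Benjamini-Hochberg adjustment. Differences understate the change of low genes. The fit was tested on simulated data. The labels name no batch. The 10 genes and 7 lists (84 genes) were chosen with earlier results of these data known. Named were the 10 genes, up to 4 genes per list with the smallest p, and the 5 nearest profiles; Foxo1, Socs2, Cish, G6pc, Pck1 and genes under the filter were added after their values were seen. A gene of the insulin-induced list is counted but not reported by name. Alternatives changed the pseudocount, filter, scaling, trend and replicate block, and left out libraries. SD is standard deviation and SE standard error.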

Additional observations from a re-analysis of the deposited data

How the results depend on the processing

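The difference of Igfbp1 and Irs2 against Igf1 and Igfals kept its sign in all 14 alternatives, from -2.12 to -1.37. The filters, median scaling, replicate block and trend cannot move it (-1.82 in each). The contrast was chosen with these values known, so its sign is a description only. Fabp4 alone passed the test over all genes in the fit described above. In the alternatives, 0 genes passed without a filter, with a replicate block, or without WT replicate 1 or KO replicate 2. Without KO replicate 1 the 1 gene that passed was Gm32542, and Fabp4 did not. Leaving out 1 library gave 0 to 6. Genes with no overlap numbered 1024 of 8075 with a filter of 5 TPM, against 1886 of 14155. With 1 library left out they numbered from 2770 of 14120 to 3860 of 14082. Smaller groups fail to overlap more readily, so counts with libraries left out do not compare with 1886. Of these 1886 genes 67.1% were higher in KO, against 50.7% after median scaling. Without KO replicate 1 and WT replicate 2 together (chosen after seeing the data) 3 genes passed and 5306 of 14085 did not overlap. List genes past the test numbered 0, or 0 to 2 with 1 library left out (2 without WT replicate 3, Mid1ip1 among them). With 1 library left out, the differences of 3 named list genes turned sign, Igfbp5 (-0.047 to 0.86), Tat (-0.21 to 0.34) and Mttp (-0.024 to 0.16), lowest without KO replicate 1, KO replicate 3 and WT replicate 2 in that order. Of the 10 described genes, 3 changed sign without WT replicate 2: Igfbp3 (-0.22), Ghr (-0.06) and Irs1 (-0.09). Igfbp3 was also at -0.02 without KO replicate 1 or 2, and Igfbp4 was at -0.0091 without KO replicate 1 and WT replicate 2 together. The deviations of same-numbered libraries from their group means correlated at -0.261, -0.265 and -0.0494, against -0.0565 to 0.276 for differently numbered ones. With 3 libraries in each group, these values cannot tell whether replicate numbers pair the samples. The cause of these changes was not tested. Depth is unknown, and 3 libraries a group limit the precision.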

Other observations

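Igfbp1 is also known as a target of the amino acid and stress response, and 7 genes of that response were set beside it. Of these, 4 had a positive and 3 a negative difference, and none passed the test (smallest limma adjusted p 0.522; 2 with an unadjusted p under 0.05). The median log2 difference was 0.15, and 2 of 7 had groups that did not overlap, against 13.3% of all genes. Asns, which makes asparagine, was at 2.67, 1.20 and 2.14 TPM in KO replicates 1, 2 and 3, against 5.50, 15.8 and 6.12 TPM in WT replicates 1, 2 and 3 (log2 -1.64, SE 0.37). Every KO library lay under every WT library, as for Igfbp1. Over the WT libraries Asns ranged from 5.50 to 15.8 TPM and Igfbp1 from 285 to 308 TPM. A link between the 2 genes was not tested. Chac1, which breaks down glutathione, was at 0.863, 0.506 and 0.228 TPM in KO, against 0.688, 2.87 and 2.50 TPM in WT (log2 -0.91, SE 0.33). The transcription factor gene Atf3 ran the other way, at 3.11, 2.80 and 6.54 TPM in KO against 2.78, 0.698 and 2.76 TPM in WT (log2 0.76, SE 0.38), and Sesn2 differed by 0.51 (SE 0.24).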
